A study of Homo sapiens with 4 samples.

Results

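BLOC1S5-TXNDC5 is a readthrough gene, a transcription unit that starts at one gene and runs on into the next, and BLOC1S5 and TXNDC5 are the genes it joins. These 3 rows, of 35820 gene rows in the deposited table, were described in TOP3B knockout cells and in wild-type cells. They were chosen by name because the count of BLOC1S5-TXNDC5 differed between the genotypes in this table, so the values of the 3 rows and of their sums are given below as a description, with no test.

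The RNA came from HCT116, a human colon carcinoma line. The knockout (KO) libraries were made from clone E2-4, obtained by CRISPR with a guide RNA against exon 2 of TOP3B (topoisomerase III-beta, which acts on both DNA and RNA), and the wild-type (WT) libraries from unedited HCT116. Each genotype had 2 libraries of total RNA depleted of ribosomal RNA, and the study used them to ask how TOP3B affects R-loops (RNA-DNA hybrids) and transcription. No treatment was given, and the KO is 1 clone, so the genotype and the clone cannot be told apart. Nothing in the labels states that replicates were separate cultures. P-values of other genes then measure only the spread between these samples, which may be technical.

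Totals ran from 10450048 to 16143634 estimated counts per library. Levels are given as CPM, counts scaled to a common library size after correction with TMM factors, which adjust each library for its composition. These factors were 1.06 in both KO libraries, against 0.858 in WT replicate 1 and 1.04 in WT replicate 2, so WT replicate 1 stands apart. TOP3B itself had 43.9 and 54.6 CPM in KO cells, against 57.0 and 66.4 CPM in WT cells, so the row of the targeted gene was below WT in both KO libraries but still held counts. The 7 matched markers of a colon epithelial line summed to 1450 to 1520 CPM in KO cells and 2114 to 2581 CPM in WT cells, most of it KRT19, with 1204 and 1082 CPM in KO cells and 2240 and 1742 CPM in WT cells. KRT18 had 97.6 and 135.9 CPM in KO cells and 59.0 and 116.6 CPM in WT cells. VIL1 was at 0 in both KO libraries and in WT replicate 1, with 0.0818 CPM in WT replicate 2, and CDX2 was at 0 in KO replicate 2. PTPRC and CD3E, which mark leukocytes, were at 0 in all 4 libraries.

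Readthrough transcripts arise when RNA polymerase passes the end of the upstream gene without stopping and the long precursor is then spliced from an exon of the upstream gene to an exon of the downstream gene. Many of them are annotated as targets of nonsense-mediated decay, the pathway that degrades mRNAs with a premature stop codon. BLOC1S5 encodes a subunit of BLOC-1, a cytosolic complex that sorts cargo from endosomes to lysosome-related organelles such as melanosomes and platelet dense granules. TXNDC5 encodes a protein disulfide isomerase (PDI) of the endoplasmic reticulum with thioredoxin-like domains, an enzyme family that makes and rearranges disulfide bonds in newly made secretory proteins.

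The 3 genes lie on the minus strand of chromosome 6, with BLOC1S5 upstream of TXNDC5. In GENCODE 29 (GRCh38) they are BLOC1S5 (ENSG00000188428.19), TXNDC5 (ENSG00000239264.8) and BLOC1S5-TXNDC5 (ENSG00000259040.5). The readthrough gene spans 182843 bases, of which BLOC1S5 covers 27.8% and TXNDC5 covers 16%. The remaining 102752 bases, 56.2% of the span, lie between the component genes. The submitters' processing notes name hg19 and the annotation used here is of GRCh38, so coordinates are given only for the RefSeq promoter windows, in their own build.

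GENCODE 29 holds 1 transcript of BLOC1S5-TXNDC5, annotated as a nonsense-mediated decay transcript. It is 3030 bases long and has 13 exons, 4 from BLOC1S5 (bases 1 to 372) and 9 from TXNDC5 (bases 373 to 3030). The splice that defines it joins exon 4 of a BLOC1S5 transcript of 5 exons to exon 2 of a TXNDC5 transcript of 10 exons, both coding exons in their own genes. The junction is shown because reads across it can be told from reads of either component gene, with 30 bases on each side, 5′ to 3′, and with the TXNDC5 bases in capitals beside the ordinary junctions of the component transcripts.
BLOC1S5 exon 4 and TXNDC5 exon 2: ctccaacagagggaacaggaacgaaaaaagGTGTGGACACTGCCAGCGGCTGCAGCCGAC
BLOC1S5 exons 4 and 5: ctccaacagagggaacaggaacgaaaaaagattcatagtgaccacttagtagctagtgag
TXNDC5 exons 1 and 2: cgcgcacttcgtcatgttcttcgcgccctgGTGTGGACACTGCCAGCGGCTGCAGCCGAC

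Almost every base of the readthrough transcript is also a base of a component transcript. Cut into overlapping words of 31 bases, it gives 3000 words. Of these, 2631 (87.7%) also occur in transcripts of TXNDC5 and 342 (11.4%) in transcripts of BLOC1S5. The other 27 words (0.9%), which cover bases 343 to 399 across the junction, occur in no other GENCODE 29 transcript. Seen from the component genes, 60.4% of the 4354 words of TXNDC5 and 10.1% of the 3370 words of BLOC1S5 are shared with the readthrough transcript. Of all 3000 words, 242 (8.07%) also occur in EEF1E1-BLOC1S5, the readthrough gene from the upstream neighbour EEF1E1. Most exonic reads of the readthrough transcript can therefore also belong to a component gene, and estimated counts divide such reads between rows. All 3 rows are uncertain in this respect.

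**Figure D1:**
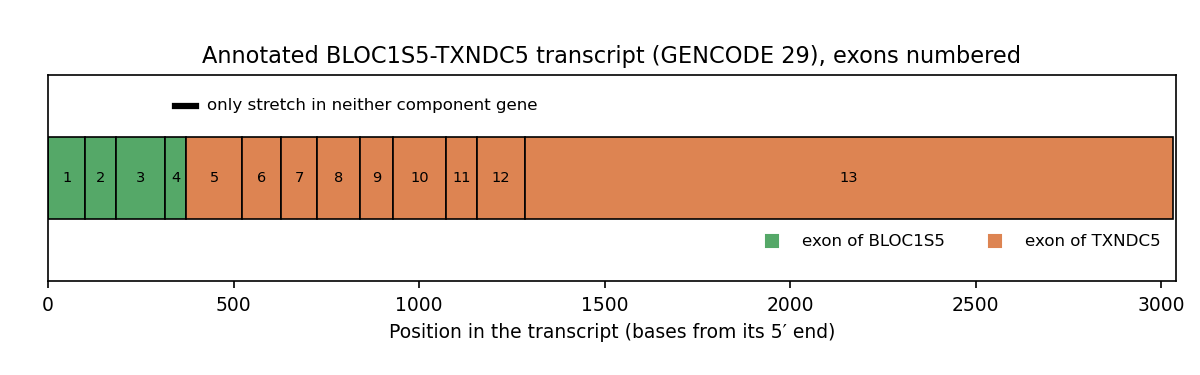
Exons of the annotated BLOC1S5-TXNDC5 transcript drawn to scale along the spliced transcript (x axis, bases from its 5′ end, 1 to 3030), coloured by the component gene that holds them, with the 31-base words found in no other transcript marked. The only stretch of such words crosses the junction, at bases 343 to 399.

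In RefSeq the readthrough gene has 1 promoter window, which it shares with BLOC1S5. This window of 300 bases around the annotated start (GRCh38.p14, minus strand, chr6:8064365-8064664), is identical to 1 of the 2 windows of BLOC1S5, while TXNDC5 has separate windows. The shared window is printed with 1 TXNDC5 window (chr6:7910739-7911038, minus strand) because the readthrough and BLOC1S5 start together, and capitals mark GGGCGG or CCGCCC, the letters of the GC box on either strand.
BLOC1S5 and BLOC1S5-TXNDC5: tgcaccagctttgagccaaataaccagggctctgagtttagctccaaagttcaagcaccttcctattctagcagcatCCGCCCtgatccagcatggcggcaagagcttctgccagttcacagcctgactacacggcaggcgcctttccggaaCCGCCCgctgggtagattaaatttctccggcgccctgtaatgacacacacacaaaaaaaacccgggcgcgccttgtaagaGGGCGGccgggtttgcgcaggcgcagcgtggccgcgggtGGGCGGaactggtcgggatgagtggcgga
TXNDC5: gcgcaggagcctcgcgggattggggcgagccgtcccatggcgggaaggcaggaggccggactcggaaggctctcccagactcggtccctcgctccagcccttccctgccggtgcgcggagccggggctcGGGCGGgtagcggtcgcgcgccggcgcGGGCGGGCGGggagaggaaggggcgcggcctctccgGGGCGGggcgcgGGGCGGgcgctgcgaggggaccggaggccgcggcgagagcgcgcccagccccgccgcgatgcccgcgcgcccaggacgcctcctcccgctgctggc
The shared window holds 4 matches and the TXNDC5 window 5, of which 2 overlap. A match was present in 45% of 35116 RefSeq promoter windows of the same length, so it sets neither window apart. These matches describe letters, not binding.

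BLOC1S5-TXNDC5 had no count in either KO library. It had 0 and 0 counts in KO cells, against 564 and 215 counts in WT cells, which is 43.4 CPM in WT replicate 1 and 17.6 CPM in WT replicate 2. The WT libraries averaged 30.5 ± 18.3 CPM (SD, n = 2), and the first of them was 2.47-fold the second. With the KO group set to a floor of 3 counts over both libraries (0.107 CPM), the row was at least 286-fold lower in KO cells, a log2 bound of -8.16 (-6.82 without KO replicate 2, the deeper of the KO libraries). Floors and intervals cover counting error only. Of the 19349 rows with a count in some library, 30 (0.155%) were at 0 in both KO libraries and at 10 or more counts in both WT libraries, and 19 (0.0982%) showed the opposite. Since this contrast chose the row, nothing is read from that share.

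TXNDC5 had nearly the same level in all 4 libraries. It had 278 and 437 counts in KO cells, against 336 and 319 in WT cells. In CPM these were 25.1 and 25.6 in KO cells and 25.9 and 26.1 in WT cells, with means of 25.4 ± 0.380 CPM in KO cells and 26.0 ± 0.165 CPM in WT cells (SD, n = 2 each). The edgeR log2 fold change of KO over WT was -0.03 (SE 0.15). Both KO values lie just under both WT values in CPM, but by less than 1 SE. Without the scaling factor the log2 fold change was 0.12, while the median of all genes moved by 0.16, and in the deposited RPKM it was also 0.12, so the direction is not fixed. In RPKM the groups overlap, with 1.77 and 1.80 in KO cells and 1.48 and 1.81 in WT cells.

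BLOC1S5 had fewer counts than TXNDC5 in every library. It had 91 and 198 counts in KO cells, against 141 and 191 in WT cells. These were 8.21 and 11.6 CPM in KO cells, and 10.9 and 15.6 CPM in WT cells, so the groups overlap. The means were 9.91 ± 2.40 CPM in KO cells and 13.2 ± 3.37 CPM in WT cells (SD, n = 2 each), with a log2 fold change of -0.41 (SE 0.31). In each genotype the second library was the higher.

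**Figure D2:**
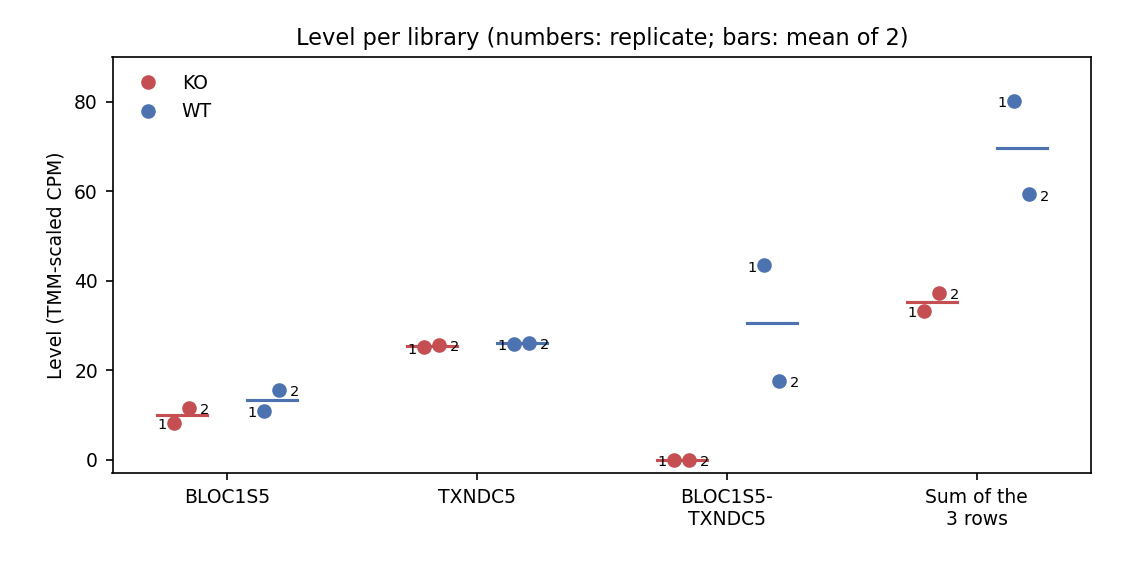
Level of each row and of their sum in each library (y axis, CPM scaled by TMM), with KO left of WT. Points are libraries and bars are means of 2. BLOC1S5-TXNDC5 is at 0 in both KO libraries and at 43.4 and 17.6 CPM in the WT libraries, while the TXNDC5 points lie between 25.1 and 26.1 CPM.

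By count, the order of the 3 rows differed between the genotypes and between the WT libraries. In both KO libraries TXNDC5 held most of the summed count, with 75.3% and 68.8%, and BLOC1S5 held the other 24.7% and 31.2%. With a floor of 3 counts in place of 0, the readthrough row would hold 0.813% and 0.472% of the summed count in these libraries. Its Wilson 95% upper limits were 1.03% and 0.601%. In WT replicate 1 the readthrough row held 54.2% (Wilson 95% interval 51.1 to 57.2%), TXNDC5 32.3% and BLOC1S5 13.5%. In WT replicate 2 the readthrough row held 29.7% (26.4 to 33.1%), TXNDC5 44.0% and BLOC1S5 26.3%. The intervals of the readthrough share do not overlap, so the WT libraries differed from each other by more than counting error. The readthrough row held more counts than TXNDC5 in WT replicate 1 and fewer in WT replicate 2.

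**Figure D3:**
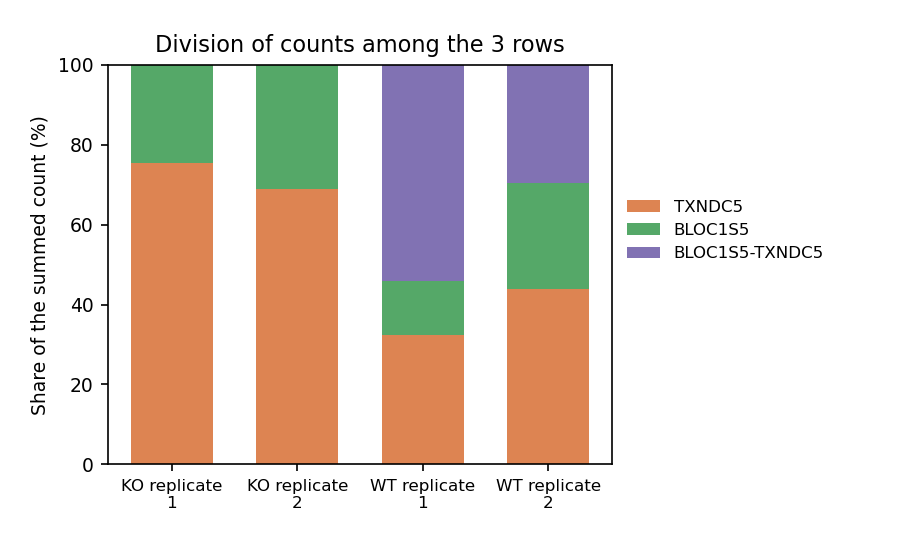
Share of the summed count of the 3 rows held by each row (y axis, percent) in each library, with KO left of WT. The readthrough row takes 0% in both KO libraries, and 54.2% and 29.7% in the WT libraries.

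Adding the rows removes from the comparison the division of reads shared among them. The sum of the 3 rows was 369 and 635 counts in KO cells, against 1041 and 725 counts in WT cells. In CPM it was 33.3 and 37.2 in KO cells and 80.1 and 59.3 in WT cells, and the groups do not overlap. The means were 35.3 ± 2.78 CPM in KO cells and 69.7 ± 14.7 CPM in WT cells (SD, n = 2 each), so the KO level was 50.6% of the WT level, with a log2 fold change of -0.98 (SE 0.19). Without WT replicate 1 it was -0.75. Among all tested genes, both KO values were below both WT values in 23.5%. The sum includes the row that chose the members, so nothing is read from that share.

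Most of the difference in the sum came from the readthrough row. The KO mean minus the WT mean was -34.4 CPM for the sum, of which -30.5 CPM belonged to BLOC1S5-TXNDC5 and -3.94 CPM to the component rows together. The component rows without the readthrough row summed to 33.3 and 37.2 CPM in KO cells and to 36.7 and 41.7 CPM in WT cells, and these groups overlap. Their log2 fold change was -0.15 (SE 0.16), on means of 35.3 ± 2.78 CPM in KO cells and 39.2 ± 3.54 CPM in WT cells (SD, n = 2 each). Without a scaling factor the log2 fold change of the component rows together was -0.003. Whether shared reads were divided differently between the genotypes was not tested.

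Sums over fewer or more rows all contain the readthrough row, which fixes their direction, and are given as values only. TXNDC5 plus the readthrough row had 25.1 and 25.6 CPM in KO cells, against 69.3 and 43.7 CPM in WT cells. BLOC1S5 plus the readthrough row had 8.21 and 11.6 CPM in KO cells, against 54.3 and 33.2 CPM in WT cells. Their log2 fold changes were -1.15 (SE 0.25) and -2.13 (SE 0.32). With EEF1E1 and EEF1E1-BLOC1S5 added, the sum of 5 rows had a log2 fold change of -0.51 (SE 0.15), and EEF1E1 made up much of that sum.

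EEF1E1 encodes an auxiliary protein of the multi-tRNA synthetase complex and lies next to BLOC1S5. It had 46.5 and 50.5 CPM in KO cells, against 49.6 and 49.0 CPM in WT cells, with a log2 fold change of -0.02 (SE 0.13, edgeR adjusted p = 0.953). EEF1E1-BLOC1S5, which shares BLOC1S5 exons, had 3 and 10 counts in KO cells, against 15 and 3 counts in WT cells. The groups overlap, and it did not pass the filter on low counts.

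None of the 5 other nearby genes tested passed the threshold, nor did any have an unadjusted p under 0.05 (edgeR's quasi-likelihood test, adjusted p under 0.05 over 12269 genes, passed by 0.00815% of them). Beyond TXNDC5, SNRNP48 (a component of the minor spliceosome) had a log2 fold change of 0.35 (SE 0.22, adjusted p = 0.555), DSP (desmoplakin, a desmosome protein) of -0.10 (SE 0.14, adjusted p = 0.791) and RIOK1 (an atypical kinase of ribosome maturation) of 0.05 (SE 0.28, adjusted p = 0.952). Beyond BLOC1S5, SLC35B3 (a Golgi transporter of the sulfate donor PAPS) had 0.44 (SE 0.30, adjusted p = 0.588) and TFAP2A (a transcription factor) had -0.31 (SE 0.34, adjusted p = 0.725). HNRNPLP1, CAGE1 and TFAP2A-AS1 had at most 4 counts in any library. Inside the readthrough span, the pseudogene row PIP5K1P1 had 0 and 0 counts in KO cells and 1 and 0 counts in WT cells.

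The RPKM scale treats the 3 rows unequally. Dividing counts by RPKM gives the length the authors divided by, which was 183 kb for BLOC1S5-TXNDC5, 38.1 to 38.4 kb for BLOC1S5 and 15.0 kb for TXNDC5. The first of these matches the genomic span of 182843 bases and not the 3030 bases of the spliced transcript. The other 2 lengths were shorter than the genomic spans, which are 50.8 kb for BLOC1S5 and 29.3 kb for TXNDC5. Whether the deposited counts also include reads from introns or from the 102752 bases between the component genes is not given in the sources used here and was not tested, so the 564 and 215 WT counts, and the sums that hold them, need not be reads of the spliced transcript. In RPKM the readthrough row was therefore the lowest row in WT cells, at 0.204 and 0.0997, below BLOC1S5 at 0.243 and 0.426 and far below TXNDC5 at 1.48 and 1.81. In counts the readthrough row was above BLOC1S5 in both WT libraries. By RPKM the order was TXNDC5, BLOC1S5 and then the readthrough row in all 4 libraries. Levels are compared here between libraries for 1 row, and the order of the rows depends on the scale.

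Other readthrough rows of the table give a setting for these values. A readthrough row was defined as one named for 2 other rows on the same chromosome. There were 101 such rows, 88 of them with a count in some library and 66 past the filter on low counts. A rule asked for 0 counts in both libraries of one genotype and 10 or more in both of the other. Of the 88 rows, BLOC1S5-TXNDC5 was the 1 at 0 in KO cells and PPAN-P2RY11 the 1 at 0 in WT cells. Of all rows with counts, 0.155% and 0.0982% met this rule. With a minimum of 5 counts in place of 10 there were 2 and 1 such rows, against 0.289% and 0.222% of all rows. With a minimum of 20 there were 1 and 1, against 0.0879% and 0.0569%. BLOC1S5-TXNDC5 was chosen by this contrast, so nothing is read from these counts. PPAN-P2RY11 had 59 and 41 counts in KO cells, against 0 and 0 in WT cells. Its components are PPAN, a ribosome biogenesis factor, and P2RY11, a purinergic receptor. PPAN had 119.3 and 93.1 CPM in KO cells and 92.0 and 83.8 CPM in WT cells, with a log2 fold change of 0.27 (SE 0.16) and both KO values above both WT values. P2RY11 had 6.77 and 7.45 CPM in KO cells and 5.00 and 6.87 CPM in WT cells, and its groups overlap.

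Counts of readthrough rows also fell to 0 in only 1 library of a genotype. Of the 88 rows, 6 were at 0 in 1 KO library with 10 or more counts in the other, and 8 showed this in WT cells. Together these were 11 rows (12.5%), against 450 of all 19349 rows with counts (2.33%). SPECC1L-ADORA2A, chosen after its values were seen, had 0 and 231 counts in KO cells and 0 and 53 counts in WT cells. INO80B-WBP1, chosen in the same way, had 8 and 10 counts in KO cells and 82 and 0 counts in WT cells. Among the tested readthrough rows, 22.7% were over 2-fold apart between the KO libraries and 19.7% between the WT libraries. Of all tested genes, 6.66% and 8.29% were. The readthrough rows were not matched to other rows by count level in these comparisons. A count of 0 in a readthrough row thus occurred between libraries of the same genotype as well. Whether the division of shared reads had a part in the 0 counts of BLOC1S5-TXNDC5 was not tested.

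Each of the 66 tested readthrough rows was then added to its component rows, and KO and WT means were compared as log2(mean CPM + 0.5). Of the single rows, 7 were over 2-fold lower and 6 over 2-fold higher in KO cells. Of the sums, 0 were over 2-fold lower and 0 over 2-fold higher. The median distance from 0 was 0.33 for the rows and 0.21 for the sums. BLOC1S5-TXNDC5 was at -5.95 for the row, a value set by the pseudocount of 0.5 since its KO counts are 0, and at -0.97 for the sum. The row was chosen for its difference and passed the filter through the WT libraries alone, and the sum contains it, so nothing is read from its place among the 66. The lowest values of the other genes were -2.42 for a row and -0.72 for a sum, the second of FPGT-TNNI3K, which was chosen after its value was seen. In counts pooled over both WT libraries, the readthrough row made up 44.1% of its sum with BLOC1S5 and TXNDC5.

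**Figure D4:**
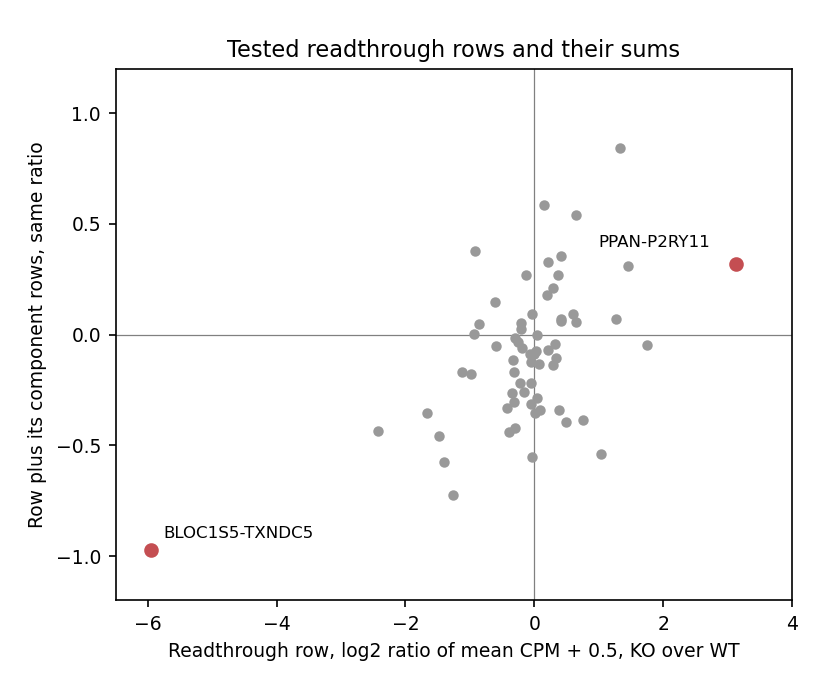
For each of 66 readthrough genes, the log2 ratio of KO over WT for the readthrough row alone (x axis) and for its sum with both component rows (y axis), as log2(mean CPM + 0.5). The marked points are BLOC1S5-TXNDC5 at -5.95 and -0.97 and PPAN-P2RY11 at 3.13 and 0.32. No sum passes 2-fold in either direction.

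Other genes of the complexes and families of BLOC1S5 and TXNDC5 were examined in 5 lists of 54 genes, of which 49 were matched to a row and 35 were tested. By edgeR's quasi-likelihood test no member was called (0 of 35), by DESeq2 0, where 1.38% of all genes were called, and by limma-voom 0. At an unadjusted p under 0.05, 0 were higher and 1, ERO1A, was lower in KO cells, against 11.2% of all tested genes in either direction. Both KO libraries were above both WT libraries for 7 members and below for 13, where all tested genes gave 23.5% in each direction. The median log2 fold change was -0.14, against -0.01 over all tested genes. Without a scaling factor the same medians were 0.01 for the lists and 0.14 for all genes, and 24 of the 35 members lay below the median of all genes with and without scaling.

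The subunits of BLOC-1 other than BLOC1S5 showed no common direction. Of 5 tested, 2 had both KO libraries above WT, 2 had both below, and the median log2 fold change was 0.00. All tested genes gave 23.5% in each direction and a median of -0.01. BLOC1S2 had 115.2 and 131.7 CPM in KO cells, against 179.5 and 138.5 CPM in WT cells (log2 fold change -0.36, SE 0.17, adjusted p = 0.495). BLOC1S6, also known as pallidin, had 99.7 and 113.1 CPM in KO cells, against 72.9 and 95.9 CPM in WT cells (0.33, SE 0.18, adjusted p = 0.520). In these libraries BLOC1S2 was below and BLOC1S6 above the WT values, and neither passed the test.

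The partner machinery of the same sorting route was also without a call. BLOC-2, BLOC-3, the AP-3 adaptor and their GTPases had 9 tested members, 3 with both KO libraries above and 2 with both below WT. Among all tested genes these shares were 23.5% each. The median of the list was -0.08, against -0.01 over all tested genes, and 0.09 against 0.14 without a scaling factor. HPS5, a subunit of BLOC-2, had 139.4 and 159 CPM in KO cells and 166.1 and 148.6 CPM in WT cells (adjusted p = 0.829). AP3M1, the medium subunit of AP-3, had 113.1 and 114.5 CPM in KO cells and 133.8 and 115.3 CPM in WT cells (adjusted p = 0.690). BORC, a complex that positions lysosomes and shares subunits with BLOC-1, had 4 tested members of its own, with a median of -0.16. KXD1 had 47.3 and 47.2 CPM in KO cells and 44.2 and 55.1 CPM in WT cells (adjusted p = 0.879). BORCS8 had 13.2 and 12.4 CPM in KO cells and 17.2 and 13.3 CPM in WT cells (adjusted p = 0.668). BORCS8, BORCS7 and AP3S2 have readthrough rows of their own in the table and are uncertain for the same reason as TXNDC5.

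On the TXNDC5 side, 12 other members of the PDI family were tested. Of these, 2 had both KO libraries above and 4 both below WT, with a median of -0.19. Over all tested genes, 23.5% lay above and 23.5% below in this way, with a median of -0.01. TMX1, a membrane-bound PDI, had 193.6 and 226.7 CPM in KO cells, against 288.1 and 235.5 CPM in WT cells (log2 fold change -0.32, SE 0.16, adjusted p = 0.507). DNAJC10, a reductase of the endoplasmic reticulum, had 155.4 and 173.1 CPM in KO cells, against 204.1 and 167.2 CPM in WT cells (-0.18, SE 0.15, adjusted p = 0.648). P4HB, the founding member of the family, which most cells express, is listed at 0 in all 4 libraries, as are AGR2, AGR3 and PDILT.

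The thiol oxidases and peroxidases that supply PDIs with oxidizing equivalents had 5 tested members, all 5 with a log2 fold change below 0 (4 of 5 without a scaling factor), and 3 with both KO libraries below both WT libraries. Of all tested genes, 51.5% were below 0 and 23.5% had both KO values below both WT values. The median of the list was -0.59. ERO1B, which did not pass the filter on low counts, had 0.541 and 0.469 CPM in KO cells, against 0.308 and 0.327 CPM in WT cells. ERO1A, the oxidase that reoxidizes PDIs, had 61.4 and 67.1 CPM in KO cells, against 141.0 and 87.4 CPM in WT cells, with groups that do not overlap (log2 fold change -0.83, SE 0.25, edgeR adjusted p = 0.383). It was called only without WT replicate 2, where the adjusted p was 0.0154 and the log2 fold change -1.12. Over the 10 alternatives its adjusted p ran from 0.0154 to 0.777. GPX8, a peroxidase of the endoplasmic reticulum, had 75.3 and 76.9 CPM in KO cells, against 90.2 and 86.9 CPM in WT cells (-0.22, SE 0.11, adjusted p = 0.517).

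**Figure D5:**
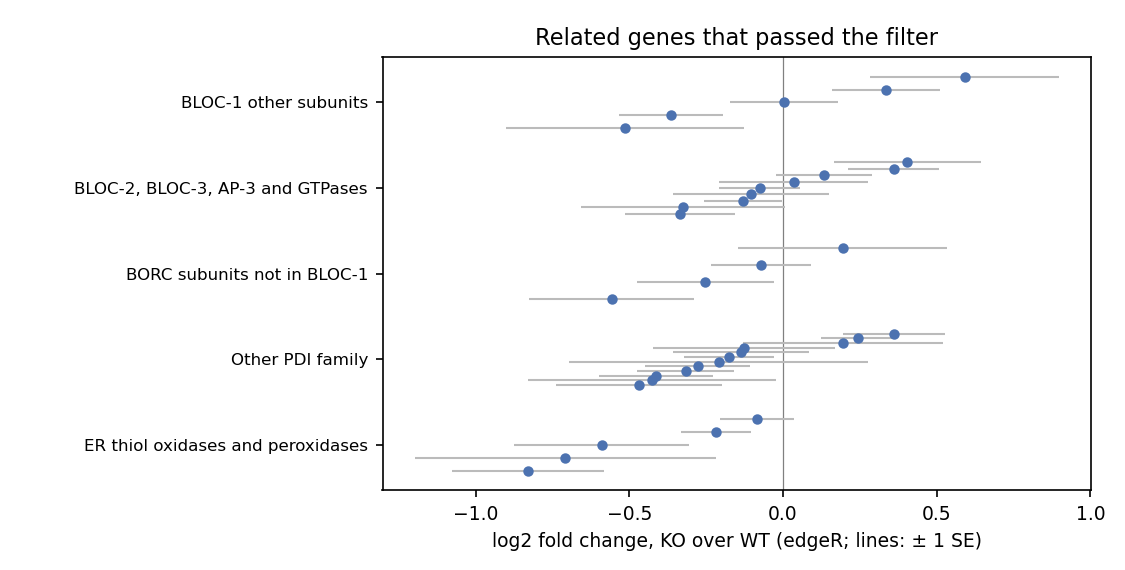
Log2 fold change of KO over WT (x axis) for each tested member of the 5 lists (rows of points), with lines of ± 1 SE. The list medians, which are not drawn, lie between -0.59 and 0.00, and no point passed the adjusted threshold.

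The genes with the most similar levels across the 4 libraries were found by Euclidean distance of log2(CPM + 0.5) over all 12269 tested genes. Nearest to BLOC1S5-TXNDC5 were EHF at 2.14, POLR2L at 2.20, GMDS at 2.85, VPS33A at 2.86 and CPEB1 at 2.93, all of them far in this measure. EHF had 0 and 0 counts in KO cells, against 124 and 187 in WT cells, and CPEB1 had 0 and 0, against 84 and 87. GMDS had 6 and 1 counts in KO cells, against 122 and 70 in WT cells, and VPS33A had 7 and 13, against 248 and 53. POLR2L, a subunit shared by the RNA polymerases, had 0 and 18 counts in KO cells, against 593 and 74 counts in WT cells. The nearest rows thus included ones with large and ones with smaller differences between libraries of the same genotype. Nearest to TXNDC5 were TSC22D2 at 0.0773, ZNF700 at 0.0979, TINAGL1 at 0.0989, TEX264 at 0.111 and NHEJ1 at 0.129. These distances rest on 4 libraries and describe similar levels only.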

How the data were processed

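Total RNA of 2 KO and 2 WT libraries was sequenced. The authors deposited estimated counts per gene, and RPKM per gene. Per the submitters' processing notes, the tool was Salmon 1.10.1 and the build hg19. The annotation behind the counts is not given in the sources used here. These deposited estimated counts are whole numbers and were used as they stand. The library kit marks strand, per the labels' protocols.

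Genes were tested with edgeR's quasi-likelihood test (edgeR 4.0.16, limma 3.58.1, R 4.3.3), with TMM factors, filterByExpr, genotype as the only term, Benjamini-Hochberg adjustment over 12269 genes and a threshold of 0.05. The standard error of a log2 fold change is its size over the square root of F. DESeq2 1.42.0 and limma-voom were alternatives. CPM used the TMM-scaled library sizes. Sums replaced their rows in the whole table before refitting. The fits were tested on simulated data. Sequence words, exons and gene order came from GENCODE 29, and promoter windows from RefSeq (GRCh38.p14), in which all 3 members were matched.

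The members and lists were chosen with earlier results of these data known. Named were the members and their sums, EEF1E1 and EEF1E1-BLOC1S5, every neighbour among the 5 with counts on either side, the 2 members of highest mean CPM in each list and those with an unadjusted p under 0.05, readthrough rows at 0 in one genotype, and the 5 rows nearest to BLOC1S5-TXNDC5 and to TXNDC5. The sum of the component rows alone, the addition of readthrough rows to their components and the 0 counts within a genotype were chosen after seeing the data.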

Additional observations from a re-analysis of the deposited data

How the results depend on the processing

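The count of genes called by edgeR was 1. It was 42 without a scaling factor, 34 without a filter on low counts, 183 with DESeq2 and 0 to 575 when 1 library was left out (0 without KO replicate 1, 0 without KO replicate 2, 3 without WT replicate 1 and 575 without WT replicate 2). List members called numbered 0, and 0 to 1 with 1 library left out. The TXNDC5 log2 fold change was 0.12 without a scaling factor and 0.12 in RPKM. With 1 library left out, that of TXNDC5 ran from -0.05 to -0.02 and that of BLOC1S5 from -0.69 to -0.11. The readthrough bound ran from -8.66 to -6.82, the lower size without KO replicate 2, the deeper of the KO libraries. The sum of 3 rows ran from -1.17 to -0.75, TXNDC5 plus the readthrough row from -1.44 to -0.78, BLOC1S5 plus the readthrough row from -2.43 to -1.74 and the 5-row sum from -0.62 to -0.36, and the last was -0.34 without a scaling factor. The WT share of the readthrough row ran from 29.7% to 54.2%. Of 160 values for 16 other named genes, 147 kept their direction and side of the threshold, 12 changed sign without being called and 1, of ERO1A, was newly called. The causes were not tested.

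The labels give both genotypes replicates 1 and 2, but same-numbered libraries did not deviate together (r = 0.0637 across 12269 genes, 2 pairs). With a replicate block 1 gene was called, the 3-row sum was -0.97, TXNDC5 -0.03 and BLOC1S5 -0.41. With 2 libraries a genotype and counts of 91 to 564 in the member rows other than the 0 counts, differences of the size of that in BLOC1S5 could not be told from the spread.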

Other observations

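Other short motifs were searched on both strands of the promoter windows. The shared window of BLOC1S5 and BLOC1S5-TXNDC5 held 1 GCGTG motif and no CCAAT, no TATAAA and no ACGTG motif, and the printed TXNDC5 window held 1 CCAAT and none of the others. These motifs occur in 36.5% (GCGTG), 34.6% (CCAAT), 11.5% (TATAAA) and 21.4% (ACGTG) of all promoter windows. The ER stress element, searched by its consensus, was in neither window and is in 0.0769% of all windows.

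The ratio of TXNDC5 counts to BLOC1S5 counts was 3.05 and 2.21 in KO cells, against 2.38 and 1.67 in WT cells. The groups overlap, and in each genotype the ratio was lower in the second library.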
